A study of Mus musculus with 6 samples.

Results

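The genes described are 10 genes linked to immune suppression and to the polarization of neutrophils: Arg1, Arg2, Nos2, Cd274, Vsir, Havcr2, Entpd1, Il10, Il4ra and Wfdc17. They were chosen by name, and all 10 were found among the 55487 genes of the count table by matching gene identifiers to GENCODE M21 symbols. RNA was sequenced from neutrophils that had been sorted as Ly6G-positive cells from the digested lungs of perfused mice. The 3 mutant libraries came from Mrp8-Cre;TGFbR2-fl/fl mice, in which a transgene made with the S100A8 (Mrp8) promoter drives Cre and EGFP and both alleles of the TGF-beta type II receptor gene are floxed. The 3 wt libraries came from littermates with the same floxed alleles and no Cre, so that the groups differ in the transgene as well as in the receptor gene. The sources used here give neither age nor sex. No label says which mouse a library came from, and the p-values therefore weigh a difference against the spread among libraries, which may be partly technical.

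Neutrophils can restrain T cells in several ways. Arginases, and the inducible nitric oxide synthase encoded by Nos2, consume arginine, which T cells need to divide. PD-L1 (Cd274), VISTA (Vsir) and TIM-3 (Havcr2) are surface proteins of immune checkpoints, CD39 (Entpd1) begins the breakdown of extracellular ATP towards adenosine, and IL-10 is an anti-inflammatory cytokine. In tumours TGF-beta is known to push neutrophils towards an arginase-expressing, suppressive state, which makes these genes a natural set to read where the receptor gene is targeted.

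RefSeq promoters (GRCm38.p6, 250 bases before to 50 after the start) were held for 6 of the 10 genes, in 7 windows because Entpd1 has 2. The core SMAD-binding letters CAGAC, searched on both strands, were in 6 of these 7 windows, against 49.6% of all 32851 promoter windows. The window without them was that of Wfdc17. The IRF letters (TTTC and TTTC with any 2 bases between them) were in 0 of the 7 windows, against 3.44% of all promoters. The STAT letters TTC and GAA were in 0 windows with 3 bases between them and in 0 with 4 bases between them, against 8.30% and 6.95%. The NF-kB letters (GGG and TTTCC with any 2 bases between them) were in 1 window, that of Il4ra, against 1.63%. Wfdc17 had the letters TATAAA from base -3 to base 2 around its RefSeq start, a match held by 13.6% of all promoters. A match is a run of letters and not a shown binding site, and no match says only that these letters are not in the window. The promoters are shown for Wfdc17 (chr11:83703806-83704105, plus strand), the gene with the smallest p below, for Vsir (chr10:60346601-60346900, plus strand), the gene with a fold change nearest to 0, and for Cd274 (chr19:29367188-29367487, plus strand), the PD-L1 gene. Capitals mark TATAAA in Wfdc17 and CAGAC in Vsir and Cd274.
Wfdc17: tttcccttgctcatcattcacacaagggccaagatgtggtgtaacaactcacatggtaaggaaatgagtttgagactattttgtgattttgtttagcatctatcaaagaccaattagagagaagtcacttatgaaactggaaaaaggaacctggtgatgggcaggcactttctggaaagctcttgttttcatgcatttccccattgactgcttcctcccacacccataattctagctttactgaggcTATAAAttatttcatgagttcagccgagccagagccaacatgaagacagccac
Vsir: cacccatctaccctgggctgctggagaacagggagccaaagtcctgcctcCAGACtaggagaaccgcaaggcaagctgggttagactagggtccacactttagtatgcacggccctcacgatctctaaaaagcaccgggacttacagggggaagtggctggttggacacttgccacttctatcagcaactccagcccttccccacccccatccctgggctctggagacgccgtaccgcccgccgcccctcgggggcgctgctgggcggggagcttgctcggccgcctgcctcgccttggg
Cd274: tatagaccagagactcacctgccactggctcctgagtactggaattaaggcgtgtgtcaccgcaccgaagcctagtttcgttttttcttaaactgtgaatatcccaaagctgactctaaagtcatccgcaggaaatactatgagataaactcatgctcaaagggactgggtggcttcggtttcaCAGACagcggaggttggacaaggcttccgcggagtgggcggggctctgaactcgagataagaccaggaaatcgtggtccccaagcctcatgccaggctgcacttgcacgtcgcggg

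The libraries held 30403494 to 35906780 counts, and a gene at 3 counts in a library stood at 0.0835 to 0.0987 CPM, the unit for counts relative to library size (with TMM factors wherever groups are compared). Sequencing reads were not marked with molecular identifiers, so such limits cover counting error only. Tgfbr2 itself was at 176, 205 and 181 CPM in mutant libraries 1 to 3 and at 186, 185 and 201 CPM in wt libraries 1 to 3, and because its count pools all exons it does not check the deletion of part of the gene. All 12 neutrophil markers, among them Csf3r, Cxcr2 and S100a8, had at least 3 counts in every library, and their summed level was 23474 to 29182 CPM in mutants and 24337 to 25701 CPM in wt. S100a8, which encodes a calprotectin subunit and shares its name with the promoter of the transgene, was at 966, 1507 and 973 CPM in mutant libraries 1 to 3 and at 1687, 1751 and 1688 CPM in wt libraries 1 to 3. S100a9 of the same list was at 637, 1211 and 696 CPM in mutants and at 1090, 1156 and 1230 CPM in wt. It overlapped between the groups, again with mutant library 2 the highest of the mutants. Of the 13 marker lists compared, 3 did not overlap between the groups, each at the smallest p that 3 against 3 libraries allow in a two-sided exact permutation test (p = 0.1, 0.433 after Benjamini-Hochberg adjustment over the 13 lists). Alveolar macrophage markers summed to 269 to 302 CPM in mutants and 206 to 256 CPM in wt, fibroblast markers to 673 to 1124 and 536 to 609.8 CPM, and dendritic cell markers, lower in mutants, to 572 to 663 and 685 to 695 CPM. The dendritic cell sum was mostly Cst3, H2-Ab1, H2-Aa and H2-Eb1, each of which overlapped between the groups. Ccr7 of that list went the other way, at 17.6, 19.4 and 28.8 CPM in mutants and 10.4, 8.72 and 15.9 CPM in wt.

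Compared per length of exon, as TPM (counts per exonic base, scaled to the same sum in each library), the 10 genes fell into a high and a low set. Arg2 was the highest, at 1012 ± 75.1 TPM in mutants and 1175 ± 54.3 TPM in wt (SD, n = 3 each), where it ranked 158 and 128 among the 15774 genes tested. Entpd1 followed at 612 ± 68.7 and 647 ± 47.0 TPM and Vsir at 564 ± 74.4 and 561 ± 17.2 TPM, which overlapped between these genes in mutants and lay just apart in wt. Il4ra (272 ± 7.71 and 317 ± 40.8 TPM), Cd274 (238 ± 28.1 and 269 ± 76.1 TPM) and Wfdc17 (172 ± 55.0 and 338 ± 60.7 TPM) formed the next group. In both groups of mice Cd274 overlapped Il4ra, while Wfdc17 overlapped Cd274 but not Il4ra in mutants and overlapped both in wt.

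The low set was Havcr2, Arg1, Nos2 and Il10. Havcr2 stood at 14.9 ± 4.23 TPM in mutants and 8.15 ± 5.65 TPM in wt, Nos2 at 2.05 ± 0.634 and 2.68 ± 0.970 TPM and Arg1 at 5.49 ± 7.82 and 1.10 ± 0.621 TPM. Arg1 overlapped Havcr2, Nos2 and Il10 in mutants, while in wt it lay just below Nos2 and overlapped Il10. These 4 genes together made up 0.545% to 1.24% of the summed TPM of the 10 genes in mutants and 0.218% to 0.447% in wt, while Arg2, Entpd1 and Vsir together made up 74.4% to 76.4% and 68.9% to 75.5%. The sum over the 10 genes was 2866, 2893 and 2920 TPM in mutant libraries and 3536, 3199 and 3222 TPM in wt libraries.

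**Figure D1:**
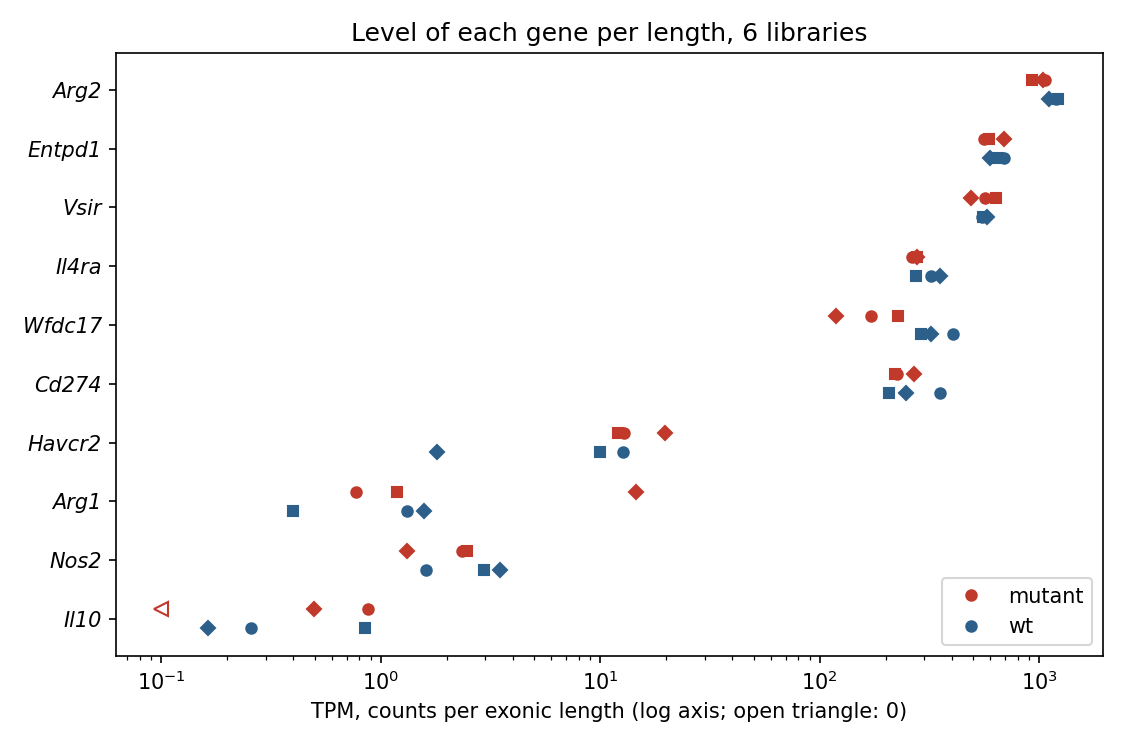
Level per exonic length (TPM, log axis) of each of the 10 genes in the 3 mutant (red) and 3 wt (blue) libraries, with circle, square and diamond for replicates 1, 2 and 3. Arg2 lies near 1012 TPM in mutants and 1175 TPM in wt, Havcr2, Arg1, Nos2 and Il10 lie under 20 TPM, and an open triangle marks the mutant library with 0 counts of Il10.

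Mutants were compared with wt over all 15774 genes that passed the filter on low counts, with edgeR's quasi-likelihood test and Benjamini-Hochberg adjustment. Of the 10 genes 9 were tested, Il10 being too low, and 0 of 9 passed an adjusted p of 0.05, against 1 gene (0.00634%) of all those tested. At an unadjusted p under 0.05 there were 2 of the 9, Wfdc17 and Arg2, against 6.73% of all genes (3.51% higher and 3.22% lower in mutants), both of them lower. DESeq2's Wald test, which gave no adjusted p for Arg1, called 1 of the other 8, Wfdc17, against 0.983% of all genes, and limma-voom called 0 of 9. The libraries of the groups did not overlap for 3 of the 9 genes (Wfdc17, Arg2 and Havcr2), against 13% of all genes. Of these, Wfdc17 and Arg2 were lower in mutants, against 6.21% of all genes, and Havcr2 was higher, against 6.82%. Log2 fold changes of mutant over wt were negative for 6 and positive for 3, with a median of -0.18, against 0.01 over all tested genes, of which 49.3% were negative.

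**Figure D2:**
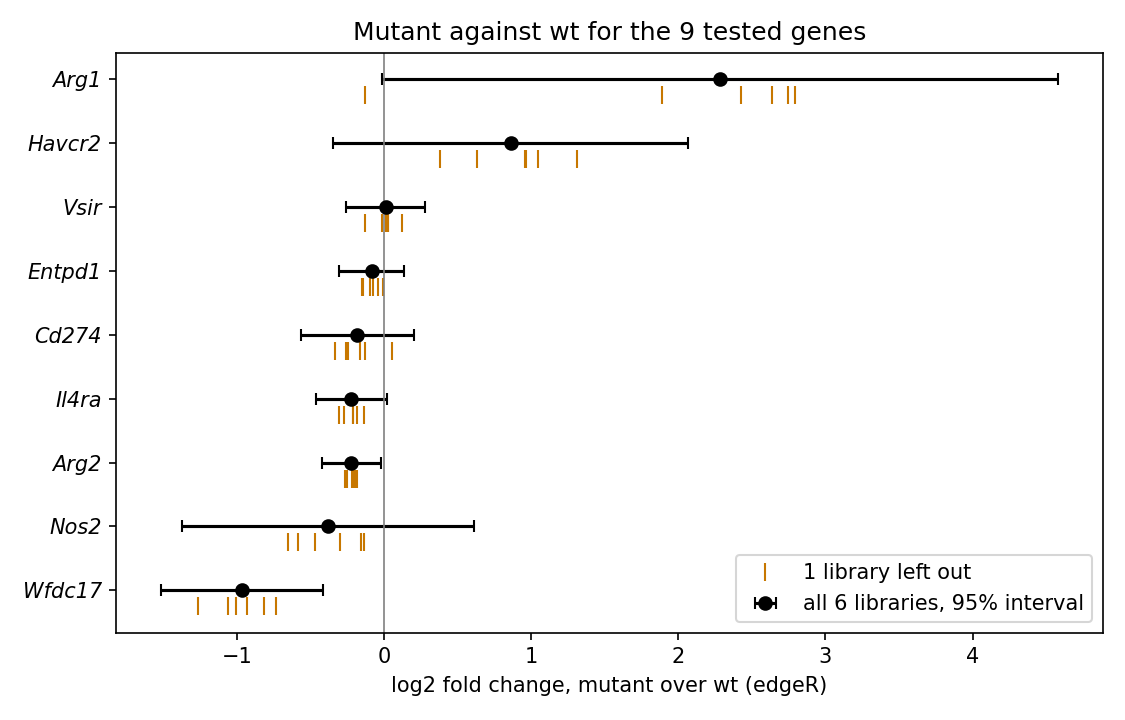
Log2 fold change of mutant over wt for the 9 tested genes (edgeR), with 95% intervals as bars and orange ticks for the values with each library left out. Intervals of Wfdc17 (-1.51 to -0.41) and Arg2 (-0.42 to -0.02) lie below 0, the others include 0, and Arg1 has 1 tick at -0.13 apart from the rest.

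Wfdc17 (ENSMUSG00000069792.5, plus strand of chromosome 11, 83703991 to 83706268 in GRCm38) encodes a small secreted protein with a whey acidic protein domain, known in mouse macrophages to be anti-inflammatory. It was at 26.3, 37.6 and 17.9 CPM in mutant libraries 1 to 3 and at 63.2, 45.9 and 50.1 CPM in wt libraries 1 to 3. Every mutant library lay below every wt library, with mutant library 2 closest to wt. The mean in wt was 1.95 times that in mutants, and the log2 fold change was -0.96 ± 0.25 (SE; edgeR adjusted p = 0.368). The call depended on the settings, with an adjusted p of 0.0165 by DESeq2, 0.0176 by edgeR without a filter on low counts and 0.0945 by edgeR on the 6910 genes averaging 10 CPM or more, where 0.26% were called. Over all alternatives, each library left out included, it ran from 0.0165 to 0.752.

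Wfdc17 is short, with 533 exonic bases, and short genes differed between libraries. Over the 53 genes of at most 800 exonic bases and a mean of at least 10 CPM, the median deviation on the log2 scale from each gene's mean over the 6 libraries was -0.19, 0.24 and -0.25 in mutant libraries 1 to 3 and -0.10, 0.14 and 0.07 in wt libraries 1 to 3. Mutant libraries 1 and 3, the lowest for Wfdc17, were therefore also the lowest for short genes in general. The median log2 fold change of these 53 genes was -0.09, and Wfdc17 had the most negative value among them. With an offset for exonic length in each library, an alternative chosen after seeing the data, the log2 fold change of Wfdc17 was -0.97 (adjusted p = 0.324, edgeR).

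Related genes of the same chromosome were much lower. Wfdc21, which like Wfdc17 has the whey acidic protein domain, was at 3.59, 9.08 and 4.09 CPM in mutant libraries and at 9.33, 9.84 and 10.2 CPM in wt libraries, and its log2 fold change was -0.81 ± 0.36 (SE; edgeR adjusted p = 0.733). Its mutant library 2 again lay closest to wt. Wfdc21 is also short, with 434 exonic bases, and short genes in general were highest in mutant library 2, as given above. Wfdc18, the next gene along (named after its values were seen), had 1, 0 and 7 counts in mutants and 2, 1 and 2 counts in wt. Of the 17 genes listed with whey acidic protein domains or as leukocyte protease inhibitors and their target proteases, 9 were tested, with 6 positive and 3 negative fold changes, a median of 0.08 and 0 called by edgeR, DESeq2 or limma-voom. At an unadjusted p under 0.05 in edgeR 1 was negative, against 3.22% of all genes. Serpinb2, an inhibitor of urokinase, averaged 1.57 ± 0.892 CPM in mutants against 0.327 ± 0.414 CPM in wt (SD, n = 3 each, edgeR adjusted p = 0.801).

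**Figure D3:**
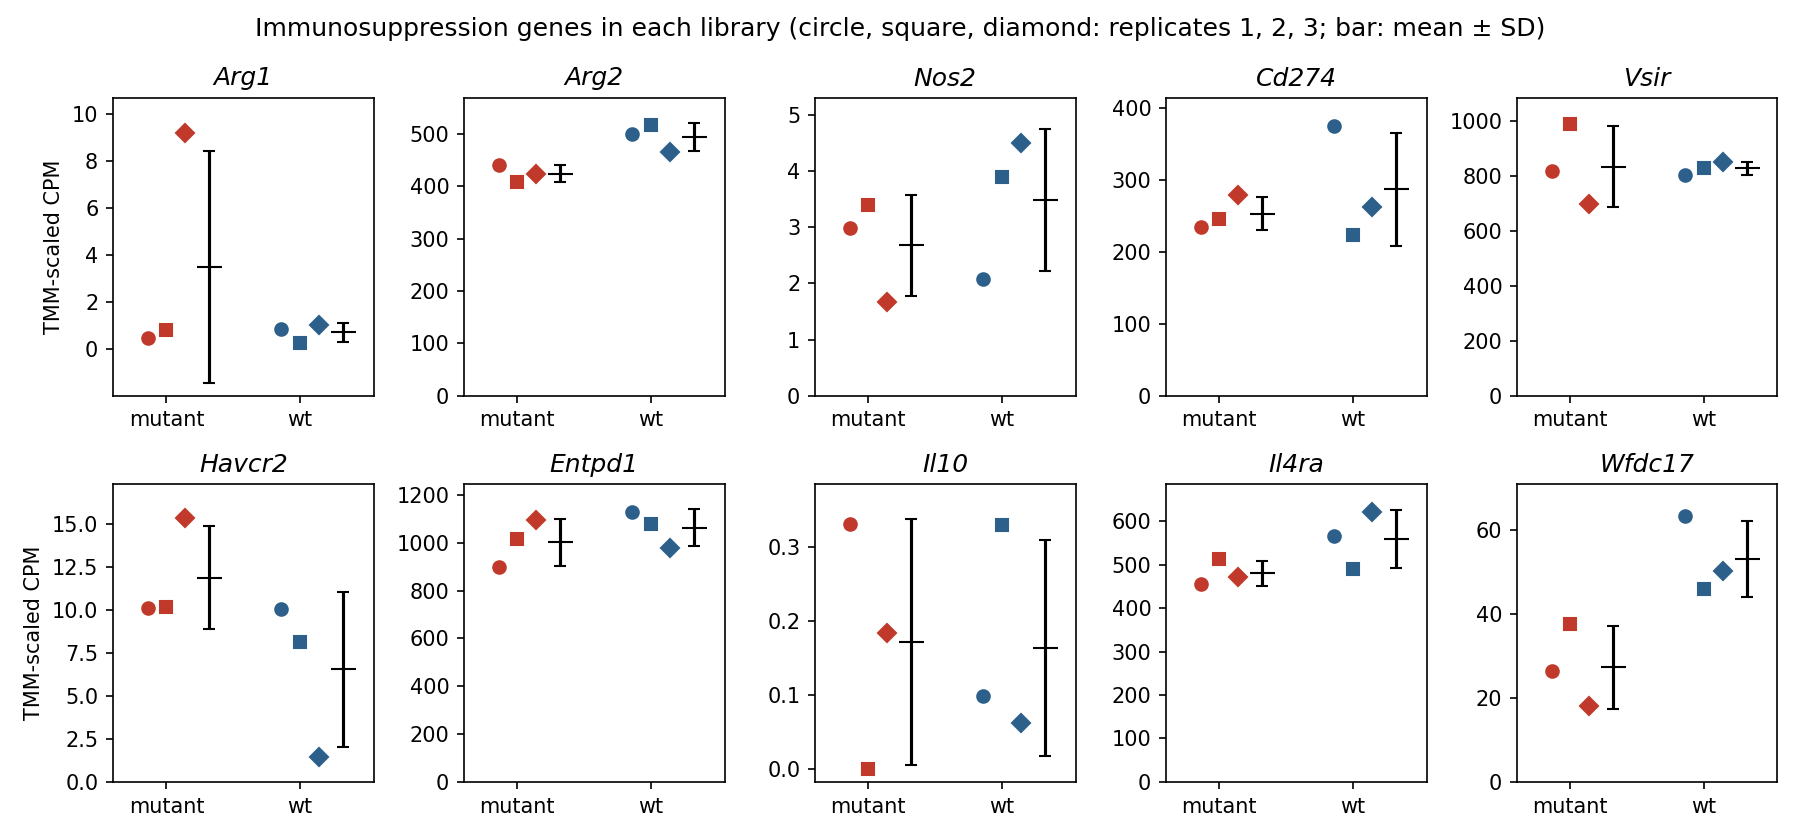
CPM scaled by TMM for each of the 10 genes in mutant (red) and wt (blue) libraries, with circle, square and diamond for replicates 1, 2 and 3 and black bars for the mean ± SD. Wfdc17 lies between 17.9 and 37.6 CPM in mutants and between 45.9 and 63.2 CPM in wt, while Vsir, Entpd1 and Cd274 overlap between the groups.

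The arginase of these cells at the RNA level was Arg2, the mitochondrial form, rather than Arg1, the cytosolic form known from liver and from alternatively activated macrophages. Arg2 (chromosome 12, 79130777 to 79156301) was at 440.5, 409 and 423 CPM in mutant libraries 1 to 3 and at 499.6, 518 and 465 CPM in wt libraries 1 to 3. All mutant libraries lay below all wt libraries, by a small margin relative to the level. The log2 fold change was -0.22 ± 0.09 (SE; adjusted p = 0.676 by edgeR, 0.394 by DESeq2). Of its exonic bases 20.0% also belong to exons of Vti1b on the other strand, and these libraries do not mark strand.

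Arg1 (chromosome 10, 24915221 to 24927484) had 18, 24 and 299 counts in mutant libraries 1 to 3 and 26, 8 and 33 counts in wt libraries 1 to 3. On the CPM scale this was 0.498, 0.813 and 9.20 in mutants and 0.854, 0.264 and 1.03 in wt, so that mutant library 3 stood apart and the other 5 libraries overlapped. The log2 fold change of 2.28 ± 1.03 (SE, adjusted p = 0.745, edgeR) rested on that library and was -0.13 without it (adjusted p = 1.00). The ratio of Arg2 to Arg1 in TPM was 1381, 785 and 71.7 in mutant libraries and 913, 3059 and 704 in wt libraries, so Arg2 exceeded Arg1 in all 6.

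Mutant library 3 was also the highest of the 6 for summed markers of several, though not all, other cell types. Its epithelial markers summed to 1004 CPM, against 541 and 629 CPM in mutant libraries 1 and 2 and 269 to 550 CPM in wt. That sum was mostly Sftpc (446 CPM), Sftpa1 (247 CPM) and Ager (143 CPM), each at its highest there. Epcam (1.29 CPM) and Scgb1a1 (17.3 CPM) were instead at their lowest of the mutants. The fibroblast markers of mutant library 3 summed to 1124 CPM and its alveolar macrophage markers to 302 CPM, the upper ends of the mutant ranges above. Single alveolar macrophage markers went both ways. Car4 (148 CPM), Marco and Cidec were at their highest of the 6 there, and Siglecf (67.3 CPM) and Ear1 at their lowest. Markers of monocytes and interstitial macrophages summed to 1041 CPM in mutant library 3, the lowest of the 6, against 1064 to 1128 CPM in wt. Natural killer cell markers were also lowest there, 19.6 CPM. Single monocyte and interstitial macrophage markers went both ways in mutant library 3. Csf1r (546 CPM) was at its lowest of the 6 there, and Apoe (408 CPM) and C1qb (8.18 CPM) were at their highest. All 12 listed alveolar macrophage markers were detected. The 12 markers of T cells and group 2 innate lymphoid cells, another Arg1-expressing population, summed to 34.7, 43.1 and 46.4 CPM in mutant libraries 1 to 3. In wt libraries 1 to 3 they summed to 41.9, 31.5 and 46.4 CPM, so mutant library 3 and wt library 3 were about level at the top. In bulk samples fewer cells of a type and less RNA per cell cannot be told apart, and the part of these cells in the Arg1 value was not tested.

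**Figure D4:**
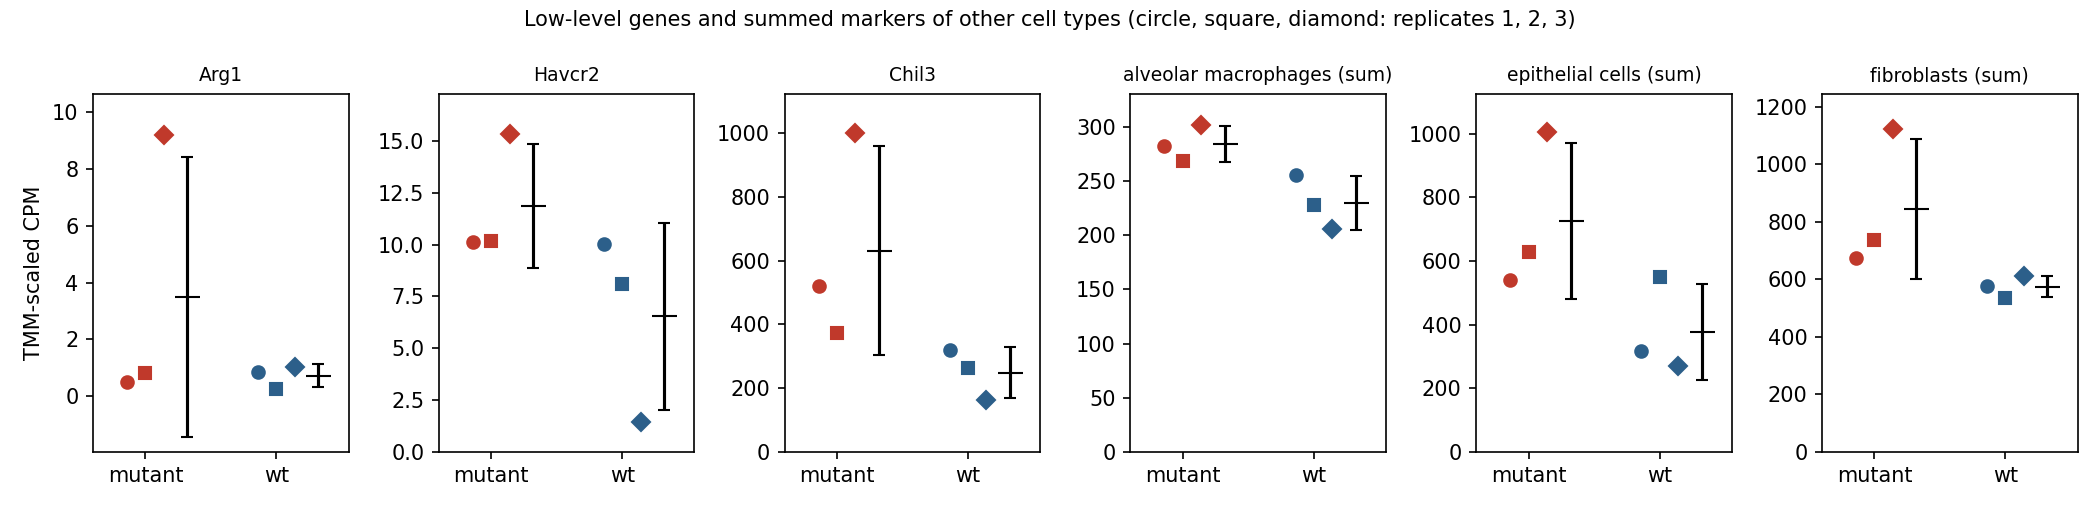
CPM of Arg1, Havcr2 and Chil3 and summed CPM of the markers of alveolar macrophages, epithelial cells and fibroblasts in mutant (red) and wt (blue) libraries, with symbols for replicates 1, 2 and 3 and bars for the mean ± SD. Mutant library 3 (red diamond) is highest in all 6 panels, at 9.20 CPM for Arg1 and 1124 CPM for fibroblast markers. Sums that were lowest in that library are not shown. These are monocytes and interstitial macrophages (1041 CPM) and natural killer cells (19.6 CPM). Single markers within the alveolar macrophage sum go both ways in mutant library 3, and not all epithelial markers are highest there.

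Nos2, which makes nitric oxide from arginine and in mouse myeloid cells is strongly induced by microbial products with interferon-gamma, was at 2.99, 3.39 and 1.66 CPM in mutant libraries and 2.07, 3.90 and 4.50 CPM in wt libraries. The groups overlapped, and the log2 fold change was -0.38 ± 0.45 (SE, adjusted p = 0.957, edgeR). Of 24 further genes of arginine transport, nitric oxide and polyamine synthesis, 22 were tested and 2, Nos1 and Agmat, had no count in any library. Among the 22, mutants had the higher level for 14 and the lower for 8, the median log2 fold change was 0.06, and edgeR, DESeq2 and limma-voom called 0, with 1 positive and 1 negative at an unadjusted p under 0.05 in edgeR, against 3.51% and 3.22% of all genes. Those were the arginine transporter gene Slc7a2, at 8.21, 7.49 and 11.4 CPM in mutants and 6.63, 3.76 and 3.56 CPM in wt (adjusted p = 0.568), and Azin1, which encodes an inhibitor of the antizymes that limit polyamine synthesis, at 97.2, 108 and 111 CPM in mutants and 134, 132 and 122 CPM in wt (adjusted p = 0.615, edgeR).

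Of the 3 checkpoint genes, Vsir and Cd274 were abundant and Havcr2 was low. Vsir (chromosome 10, 60346851 to 60372684), whose protein VISTA is known to be prominent on myeloid cells, was at 816, 988 and 698 CPM in mutant libraries and at 803, 829 and 851 CPM in wt libraries. Mutant library 1 lay inside the narrow wt range, library 2 above it and library 3 below it. The log2 fold change was 0.01 ± 0.12 (SE; 95% interval -0.26 to 0.28; edgeR adjusted p = 0.998). Cd274 (chromosome 19, 29367455 to 29388095), whose protein PD-L1 engages PD-1 on T cells and is inducible by interferon, was at 234, 246 and 279 CPM in mutants and at 375, 223 and 263 CPM in wt. The groups overlapped, with wt library 1 above the other 5. The log2 fold change was -0.18 ± 0.17 (SE, adjusted p = 0.940, edgeR) and 0.058 without wt library 1. Of the exonic bases of Cd274, 14.1% are shared with AC119228.1 on the other strand.

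Havcr2 (chromosome 11, 46454935 to 46481255), known from exhausted T cells, dendritic cells and macrophages, was at 10.1, 10.2 and 15.3 CPM in mutant libraries and at 10.1, 8.12 and 1.44 CPM in wt libraries. The groups were apart only by the small gap between the lowest mutant and wt library 1, and wt library 3 with 46 counts stood far below the other 5. The log2 fold change was 0.86 ± 0.54 (SE, edgeR adjusted p = 0.868) and 0.38 without wt library 3. In wt library 3 the alveolar macrophage markers were also at their lowest, 206 CPM, and the epithelial markers at 269 CPM. Dendritic cell markers, by contrast, were at their highest there, 695 CPM, close to the 685 and 688 CPM of wt libraries 1 and 2. Markers of monocytes and interstitial macrophages also had their highest sum there, 1128 CPM, against 1064 and 1096 CPM in wt libraries 1 and 2. Single markers of that list went both ways in wt library 3. Csf1r (681 CPM) and F13a1 (10.5 CPM) were at their highest there, and C1qc (2.94 CPM) and Fcrls (0.438 CPM) at their lowest. Markers of T cells and group 2 innate lymphoid cells were at 46.4 CPM there, against 41.9 and 31.5 CPM in wt libraries 1 and 2. The part of other cells in the Havcr2 value was not tested.

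Of 24 further checkpoint ligands and receptors 22 were tested, with 11 positive and 11 negative fold changes, a median of -0.01 and 0 called by edgeR, DESeq2 or limma-voom, while 1 was negative at an unadjusted p under 0.05 in edgeR, against 3.22% of all genes. That gene was Selplg, which encodes PSGL-1, a selectin ligand and a reported partner of VISTA. It averaged 2950.0 ± 50.3 CPM in mutants against 3484 ± 154 CPM in wt (SD, n = 3 each), a log2 fold change of -0.24 ± 0.07 (SE, edgeR adjusted p = 0.495). Cd276, the B7-H3 gene, was low, averaging 1.30 ± 0.508 CPM in mutants against 0.420 ± 0.195 CPM in wt (adjusted p = 0.765, edgeR).

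Entpd1 (chromosome 19, 40612366 to 40741602) had the highest mean CPM of the 10 genes, at 899, 1014 and 1094 CPM in mutant libraries and 1130, 1080 and 978 CPM in wt libraries. The groups overlapped, and the log2 fold change was -0.08 ± 0.10 (SE, 95% interval -0.31 to 0.14, edgeR adjusted p = 0.958). Endothelial cells are also known to express it, and their 10 markers, all detected, summed to 1265 to 1538 CPM in mutants and 1430 to 1715 CPM in wt. Nt5e, which encodes CD73, the enzyme of the next step to adenosine (named after its values were seen), was at 37.7, 32.3 and 43.2 CPM in mutants and 36.1, 45.5 and 20.5 CPM in wt.

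Among the 20 other genes of extracellular ATP and adenosine, 18 were tested, 10 fold changes were positive and 8 negative, and the median was 0.10. EdgeR and limma-voom called 0. At an unadjusted p under 0.05 in edgeR 1 was positive and 2 were negative, against 3.51% and 3.22% of all genes, and DESeq2 called 1 lower, against 0.983% of all genes called either way. The gene called by DESeq2 was Entpd3, another ectonucleotidase gene of the Entpd1 family, at 37.4, 33.6 and 43.9 CPM in mutant libraries and 78.5, 54.5 and 51.8 CPM in wt libraries. All mutant libraries lay below all wt libraries, and the log2 fold change was -0.69 ± 0.18 (SE; adjusted p = 0.393 by edgeR, 0.0417 by DESeq2). Enpp1, which encodes an enzyme that makes AMP and pyrophosphate from ATP, averaged 4.97 ± 1.73 CPM in mutants against 1.92 ± 1.06 CPM in wt (SD, n = 3 each, adjusted p = 0.601, edgeR).

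Il10 was near the limit of detection. It had 12, 0 and 6 counts in mutant libraries 1 to 3 and 3, 10 and 2 counts in wt libraries 1 to 3, and 0 counts allow a level of up to 0.0987 CPM in mutant library 2. A difference was not detectable at this depth. Among 15 other genes of the IL-10 family and of IL-10 signalling 12 were tested, and Il19 and Il20 were among those not tested. Of the 12, 3 had positive and 9 negative fold changes, against 49.3% negative over all genes, and the median was -0.19. EdgeR, DESeq2 and limma-voom called 0, while 3 were negative at an unadjusted p under 0.05 in edgeR, against 3.22% of all genes. These were Nfil3, Socs3 and Tyk2. Tyk2 and Jak1 are also in the list of IL-4 and IL-13 receptor signalling below, so the counts of these lists are not separate. Nfil3, a transcription factor gene known to be induced by IL-10 in macrophages, averaged 335 ± 34.9 CPM in mutants against 448 ± 55.4 CPM in wt (adjusted p = 0.444, edgeR). Socs3, the feedback inhibitor of STAT3 signalling, averaged 689 ± 80.6 CPM in mutants against 938 ± 171 CPM in wt (SD, n = 3 each; adjusted p = 0.498, edgeR).

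Il4ra (chromosome 7, 125552120 to 125579474) encodes the alpha chain shared by the receptors for IL-4 and IL-13, which in mouse neutrophils are known to restrain migration. It was at 456, 513 and 472 CPM in mutant libraries and 566, 490.2 and 623 CPM in wt libraries. Mutant library 2 lay above wt library 2, so that the groups overlapped, and the log2 fold change was -0.22 ± 0.11 (SE, edgeR adjusted p = 0.787). Of 14 further genes of this pathway 11 were tested, with 2 positive and 9 negative fold changes, against 49.3% negative over all genes, and a median of -0.08. EdgeR, DESeq2 and limma-voom called 0, while 2 were negative at an unadjusted p under 0.05 in edgeR, against 3.22% of all genes. They were the kinase genes Jak3, averaging 57.9 ± 10.8 CPM in mutants against 75.0 ± 2.34 CPM in wt (adjusted p = 0.645), and Tyk2, averaging 35.8 ± 5.33 CPM in mutants against 50.5 ± 16.4 CPM in wt (SD, n = 3 each; adjusted p = 0.732, edgeR). For Tyk2 the groups overlapped, with wt library 3 at 69.4 CPM, wt libraries 1 and 2 at 40.0 and 42.1 CPM and mutant library 2 at 41.9 CPM. Tyk2 and Jak1 are also in the IL-10 list above.

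Markers of alternative activation, the state that IL-4 and IL-13 induce in macrophages, had mostly positive fold changes. Of 16 listed genes 12 were tested, 11 were positive and 1 negative, against 49.3% negative over all genes, and the median was 0.39, against 0.01 over all genes. EdgeR and limma-voom called 0. At an unadjusted p under 0.05 in edgeR 2 were positive, against 3.51% of all genes, and DESeq2 called 1 higher, Egr2, against 0.983% of all genes called either way. Chil3, which encodes a chitinase-like protein of alveolar macrophages and neutrophils, was at 521, 372 and 999.6 CPM in mutant libraries and at 319, 264 and 162 CPM in wt libraries. The groups did not overlap, mutant library 3 was the highest as for Arg1, and the log2 fold change was 1.35 ± 0.34 (SE; adjusted p = 0.345 by edgeR, 0.285 by DESeq2). Egr2, a zinc finger transcription factor gene, was at 26.4, 22.4 and 31.6 CPM in mutants and 10.8, 12.98 and 13.9 CPM in wt (adjusted p = 0.253 by edgeR and 0.000402 by DESeq2). Summed alveolar macrophage, epithelial and fibroblast markers were also highest in mutant library 3, as given above. Single alveolar macrophage markers went both ways there, however, and not all epithelial markers were highest. The part of these cells in the Chil3 and Egr2 values was not tested.

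A last list held 25 other genes reported for suppressive neutrophils, all of them tested. Like the other lists it was chosen with earlier results of these data known, so its counts are a description. Fold changes were positive for 13 and negative for 12, with a median of 0.06. EdgeR and limma-voom called 0 of the 25. At an unadjusted p under 0.05 in edgeR 4 were positive and 3 negative, against 3.51% and 3.22% of all genes, and DESeq2 called 2 higher, against 0.983% of all genes called either way. These were Spp1 (osteopontin), at 106, 72.5 and 119 CPM in mutant libraries and 42.4, 53.0 and 41.9 CPM in wt libraries, and Olr1, a marker of suppressive neutrophils in human tumours, at 89.8, 96.2 and 109.8 CPM in mutants and 52.6, 68.1 and 51.6 CPM in wt. By edgeR the adjusted p was 0.242 for Spp1 and 0.263 for Olr1. Mutant library 3 was the highest of the 6 for both. Alveolar macrophage markers summed to 282, 269 and 302 CPM in mutant libraries 1 to 3 and 206 to 256 CPM in wt. Single markers of that list went both ways in mutant library 3, as given above. The part of these cells in the Spp1 and Olr1 values was not tested.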

How the data were processed

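RNA was measured in 3 mutant and 3 wt libraries of sorted lung neutrophils; per the labels' protocols libraries were made by SMART-Seq v2 and Nextera XT, which do not mark strand. The authors deposited one table of raw read counts per gene with its exon length; STAR, featureCounts and GRCm38 are named in the submitters' processing notes, with no versions or settings. Symbols came from GENCODE M21 (55094 identifiers matched exactly, 300 without version, 93 not at all).

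Genes were kept by filterByExpr (minimum count 10), which left 15774, scaled by TMM (factors 0.972 to 1.03) and tested with edgeR 4.0.16 (quasi-likelihood, R 4.3.3) with Benjamini-Hochberg adjustment. Each SE was taken from the fold change and the F statistic. TMM factors enter the CPM values; TPM values were computed from the deposited counts and lengths. Alternatives used DESeq2 1.42.0, limma 3.58.1, other scalings and filters, and each library left out. The test was checked on simulated data. Replicate numbers follow accession order, and the labels leave any pairing by litter or handling unstated.

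The 10 genes, the lists and the markers were chosen with earlier results of these data known. Named genes are the 10 and, of each list, up to 4 called genes or the 2 with the smallest p.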

Additional observations from a re-analysis of the deposited data

How the results depend on the processing

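The count of the 9 tested genes called by edgeR stayed at 0 under other scalings, the robust option, limma-voom, the length offset and with each library left out, and was 0 of 6 at a mean of at least 10 CPM, where Arg1, Nos2 and Havcr2 were not tested; it was 1 (Wfdc17) with DESeq2's Wald test and with no filter on low counts. For all genes, 1 higher and 0 lower by edgeR compared with 81 and 74 by DESeq2, 41 and 29 with no filter, and 14 and 4 at a mean of at least 10 CPM; with 1 library left out the counts ran from 0 to 2 higher and from 0 to 1 lower. Over the 8 lists 0 genes were called by edgeR, against 4 by DESeq2, 4 with no filter and 3 at a mean of at least 10 CPM. Log2 fold changes with 1 library left out ran from -1.26 to -0.73 for Wfdc17, from -0.13 to 2.80 for Arg1 (negative without mutant library 3), from -0.33 to 0.058 for Cd274 (positive without wt library 1), from -0.13 to 0.12 for Vsir (negative without mutant library 2 or wt library 1) and from 0.38 to 1.31 for Havcr2; Vsir was also at -0.0061 by limma-voom. The cause of these changes was not tested. The mutant sum of basophil and mast cell markers, nearly all Hdc, minus the wt sum was -28.5 CPM, and 24.1 CPM when scaled by library totals. By CPM in place of TPM the order of levels changed, with Entpd1 at rank 1, Vsir at 2, Il4ra at 3, Arg2 at 4, Cd274 at 5, Wfdc17 at 6, Nos2 at 8 and Arg1 at 9. Il10 had a log2 fold change only with no filter (0.08). No paired analysis was possible because the labels give no replicate number or litter shared by a mutant and a wt library. Il10, with at most 12 counts in a library, was too low to be tested with the filter.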

Other observations

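Over the 6 libraries the genes whose log2 CPM followed Wfdc17 most closely, out of 6904 compared, were Mov10, Tmcc3 and Cdc42se1, with a Pearson r of 0.992, 0.991 and 0.991. Those closest to Arg2 were Csnk2a1, Hhex and 1700071M16Rik, with an r of 0.992, 0.991 and 0.986. These are descriptions over 6 libraries of similar depth, with no test.

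Ccl24, an eosinophil-attracting chemokine gene of alternatively activated macrophages that was too low to be tested, had 0, 0 and 46 counts in mutant libraries 1 to 3 and 0, 4 and 0 counts in wt libraries 1 to 3. Il19, an IL-10 family cytokine gene that was also too low to be tested, had 0, 0 and 12 counts in mutants and 2, 0 and 0 counts in wt. The library with most counts of both is the one with the high Arg1. The 2 genes were singled out after their values were seen, and no test was made.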
